A study of Mus musculus with 18 samples.

Results

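The pore-forming and auxiliary subunits of voltage-gated and potassium-selective ion channels, and the subunits of the ionotropic receptors for glutamate, GABA, glycine and acetylcholine, were followed by RNA-seq in differentiating mouse embryonic stem cells (ESCs, pluripotent cells grown from the early embryo). The genes were chosen by name: every protein-coding gene in the table whose symbol starts with Kcn, Cacn, Gria, Grik, Grin and a digit, Gabr, Glra, Glrb or Chrn, or reads Scn, a number and a. This gave 163 of the 21995 genes in the table, in 14 families. The study compared parental ESCs with cells labelled Oct1 cKO, called cKO here and KO in another of the source labels, each at day 0, day 2 and day 6 of differentiation, with 3 libraries in each of the 6 groups. At day 0 the cells were undifferentiated. On later days they had been kept on 0.01% gelatin in DMEM with 1.5 ug/ml retinoic acid, a vitamin A derivative that drives ESCs out of pluripotency. The labels name no strain, number of clones, Cre line or agent used to delete the gene. They also leave unsaid whether replicates were grown apart, so the p-values reflect the variation among these libraries only, and part of it may be technical. Oct1 is the product of Pou2f1, a POU-domain transcription factor that binds the octamer DNA motif.

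Ion channels are membrane pores that let sodium, potassium, calcium or chloride ions pass when the voltage changes or a ligand binds. Sodium and calcium channels depolarise a cell, most potassium channels hold or restore its resting potential, and the ionotropic receptors open on binding a transmitter at a synapse. Most are assembled from a pore-forming subunit and auxiliary subunits that set where the channel goes and how it gates, and they are best known from neurons and muscle, although epithelia and stem cells use potassium channels as well. Many neuronal channel genes are targets of REST, a repressor that binds a long DNA element, RE1, and is abundant in ESCs.

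Libraries held 13694126 to 19296966 counts. Levels are given as CPM, counts scaled to library size with TMM factors (a correction for differences in RNA composition), as the mean and standard deviation (SD) over 3 libraries or for each library in replicate order. Pou2f1 was at 135, 124 and 127 CPM in the parental libraries and at 87.2, 88.2 and 62.4 CPM in the cKO libraries at day 0. At day 6 it was at 64.9, 61.1 and 64.2 CPM against 36, 45.3 and 44.5 CPM. The groups did not overlap at any day, the log2 fold change being -0.70, -0.78 and -0.60 at days 0, 2 and 6, but Pou2f1 reads remained in every cKO library. Which exons were deleted is not stated in the labels, so gene-level counts are a limited check of the deletion. The pluripotency genes Pou5f1 and Nanog were at 893 and 990 CPM in parental and at 1517 and 1067 CPM in cKO cells at day 0, so the day 0 cells expressed the markers of their label. On later days Pou5f1 fell less in cKO, at 439 against 93.2 CPM in parental cells at day 2 and 31 against 0.362 CPM at day 6. Nanog was at 28.8 against 22.9 CPM at day 2 and 0.342 against 1.34 CPM at day 6. The part of this difference in the later results was not tested. Replicate 3 of cKO at day 0 stood apart from its group, with a chi-square per degree of freedom of 10.79 and 10.43 against the others of its group, whose own value was 1.216. Genes of chromosome 11, which carries 21 of the 163 genes, were lower in cKO as a whole, with a median log2 fold change of -0.36, -0.43 and -0.42 over 1452 genes at days 0, 2 and 6. Counts outside that chromosome are therefore given beside the main ones.

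Of the 163 genes, 135 had enough counts to be tested by edgeR's quasi-likelihood test together with all other genes, 18352 in total. A gene that passed this filter only through the group in which it was high had to differ, so the 135 do not stand for all 163. The 28 others stayed at or below a group mean of 0.67 CPM (Grin2a). They include the NMDA receptor subunits Grin2a and Grin2b, the GABA-A subunits Gabra2, Gabrg1, Gabrg3 and Gabrr2, the glycine receptor subunit Glra2, the potassium channels Kcnq1, Kcnc1, Kcnj3 and Kcnk10, and the sodium channel Scn10a. At these depths they were not shown to be absent. The number of genes at 1 CPM or more was 53, 84 and 86 of 163 in parental cells at days 0, 2 and 6, and 52, 66 and 52 in cKO cells. Their summed level was 403 ± 4.35, 741 ± 8.68 and 871 ± 16.6 CPM (SD, n = 3) in parental cells on those days. In cKO cells it was 429 ± 6.08, 664 ± 8.53 and 466 ± 11.5 CPM (SD, n = 3).

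Levels of different genes were compared per exon length. On the RPKM scale, which divides CPM by the exon length in kilobases, the highest at day 0 was Kcnk5, a 2-pore potassium channel that carries background current, at 17.8 in parental and 23 in cKO cells. Kcnk1, of the same family, Cacnb3, a cytoplasmic beta subunit of calcium channels, and Cacna1a, the pore of P/Q-type calcium channels, followed at 5.3, 5.43 and 4.71 RPKM in parental cells. At day 2 the calcium channel gamma subunits Cacng7 and Cacng6 led, at 22.9 and 21 RPKM in parental and at 16.8 and 40.1 RPKM in cKO cells. At day 6 Cacnb3 led in parental cells at 24.2 RPKM, followed by Cacng7 at 9.93 and Grik5, a kainate receptor subunit, at 7.92. In cKO cells at day 6 Kcnk5 and Kcnk6 led at 17.9 and 14.4 RPKM, ahead of Cacnb3 at 8.19.

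The regulatory sequence upstream of the genes was read from RefSeq. Windows of 300 bases around the annotated starts were matched by symbol for 121 of the 163 genes, 158 windows in all, among 32851 windows of all genes. A set of 4 motifs was searched on both strands: the octamer ATGCAAAT that Oct1 binds, the left part TTCAGCACC and the right part GGACAGCGC of the RE1 element, and the direct repeat bound by retinoic acid receptors, AGGTCA and AGGTCA with 5 bases between, none of which is contained in another. The octamer was in 1 member window (0.633%) against 1.74% of all windows. The left RE1 part was in 1 (0.633%) against 0.371%, the right part in 2 (1.27%) against 0.405%, and the direct repeat in 0 against 0.00913%. A match is a description and not a shown site. The 250 bases before the start are printed for the genes with a match, and for Gabra4 and Kcnd3, which have none and whose levels differed widely between genotypes, Gabra4 at day 6 and Kcnd3 at day 0. Capitals mark the match.
Gria2 (GRCm38.p6, chr3:80802836-80803085, minus strand): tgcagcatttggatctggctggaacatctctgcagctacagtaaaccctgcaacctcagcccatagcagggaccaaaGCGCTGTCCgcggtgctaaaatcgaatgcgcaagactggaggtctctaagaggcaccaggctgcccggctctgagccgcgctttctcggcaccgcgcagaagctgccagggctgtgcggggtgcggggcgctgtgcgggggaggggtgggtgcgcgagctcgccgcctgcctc
Kcnj4 (GRCm38.p6, chr15:79505242-79505491, minus strand): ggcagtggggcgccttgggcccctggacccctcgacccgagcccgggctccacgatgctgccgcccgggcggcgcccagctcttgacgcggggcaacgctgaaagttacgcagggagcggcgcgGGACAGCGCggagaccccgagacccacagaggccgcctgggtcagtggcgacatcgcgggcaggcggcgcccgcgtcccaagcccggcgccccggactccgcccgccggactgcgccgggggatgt
Kcnh6 (GRCm38.p6, chr11:106007898-106008147, plus strand): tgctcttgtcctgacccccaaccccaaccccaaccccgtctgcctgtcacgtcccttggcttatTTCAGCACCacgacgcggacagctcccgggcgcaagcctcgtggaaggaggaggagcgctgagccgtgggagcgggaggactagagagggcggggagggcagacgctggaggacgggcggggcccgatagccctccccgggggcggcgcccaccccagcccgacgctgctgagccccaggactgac
Kcnab2 (GRCm38.p6, chr4:152477550-152477799, minus strand): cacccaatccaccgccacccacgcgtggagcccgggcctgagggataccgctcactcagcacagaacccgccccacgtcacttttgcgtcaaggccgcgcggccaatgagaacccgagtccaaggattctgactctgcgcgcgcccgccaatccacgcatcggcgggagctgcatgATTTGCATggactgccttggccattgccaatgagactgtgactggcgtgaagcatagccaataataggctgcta
Gabra4 (GRCm38.p6, chr5:71658309-71658558, minus strand): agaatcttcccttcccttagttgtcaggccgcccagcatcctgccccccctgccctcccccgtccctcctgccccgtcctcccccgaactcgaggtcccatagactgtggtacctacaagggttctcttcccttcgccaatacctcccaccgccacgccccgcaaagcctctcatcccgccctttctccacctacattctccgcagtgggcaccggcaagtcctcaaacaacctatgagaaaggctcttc
Kcnd3 (GRCm38.p6, chr3:105451640-105451889, plus strand): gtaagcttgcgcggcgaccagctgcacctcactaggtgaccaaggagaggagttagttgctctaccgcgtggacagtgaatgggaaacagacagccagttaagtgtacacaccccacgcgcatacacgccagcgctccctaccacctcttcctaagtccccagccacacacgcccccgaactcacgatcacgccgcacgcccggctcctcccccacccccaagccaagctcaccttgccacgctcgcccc
In Gria2, an AMPA receptor subunit, the right RE1 part lay on the opposite strand at -173 to -165 from the start site. In Kcnj4, an inward rectifier, it lay on the same strand at -126 to -118. In Kcnh6, a potassium channel of the ERG type, the left part lay at -186 to -178. In Kcnab2, a beta subunit of potassium channels, the octamer lay on the opposite strand at -74 to -67. At day 6 Gria2, Kcnab2 and Kcnj4 were lower in cKO, by log2 fold changes of -2.90, -2.96 and -0.88, and Kcnh6 was higher (3.90).

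At day 0, before retinoic acid, the channel and receptor genes differed between genotypes in both directions. Kcnd3 stood out as higher in cKO cells, and the T-type calcium channel genes and several glutamate and GABA receptor subunits were lower. Of the 135 genes tested, 22 were higher and 29 lower in cKO, that is 16.3% and 21.5%, against 26.4% and 27% of all genes tested (53.5% in either direction), and 84 were not called. At a fold of at least 2, 8 were higher and 20 lower, against 6.13% and 6.58% of all genes. The median log2 fold change was -0.13, or -0.03 with genes at 0 counts in a group set at the bound that 3 counts per library give, against 0.00 over all genes. Without replicate 3 of cKO the counts were 17 and 28, and outside chromosome 11 they were 20 and 27 of 118.

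Markers of other cell types also differed between genotypes at day 0. In bulk RNA, fewer cells of a type and less RNA per cell cannot be told apart. The summed level of the fibroblast (feeder cell) list, 4 of 4 genes lower in cKO, was 1055 to 1120 CPM in parental and 321 to 332 CPM in cKO libraries. The smooth muscle list, also 4 of 4 lower, was at 237 to 243 against 144 to 166 CPM, and the endothelium list, 2 of 4 lower, at 297 to 306 against 119 to 129 CPM. Pecam1 made up most of the endothelium sum, at 277 CPM in parental and 106 CPM in cKO cells. Kdr was at 1.1 against 1.51 CPM and Cdh5 at 0.0603 against 0.109 CPM. The glial list, 1 of 3 higher, was at 13.1 to 15.9 against 28.1 to 33.1 CPM, and the neuron list, 4 higher and 4 lower of 11, at 435 to 440 against 519 to 595 CPM. Olig2 made up most of the glial sum, at 14.1 CPM in parental and 30 CPM in cKO cells. The part of these cell types in the day 0 results was not tested.

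Kcnd3 encodes the Kv4.3 pore of transient A-type potassium current. At day 0 it was at 0.875, 0.956 and 0.558 CPM in parental and at 7.67, 10.5 and 6.78 CPM in cKO libraries. Every cKO library was above every parental one, with a log2 fold change of 3.35 (SE 0.22, edgeR adjusted p = 8.50e-16). An antisense gene, Kcnd3os, overlaps 165 bases of its exons, and held 35 counts over the 18 libraries against 1904 for Kcnd3. Other potassium channel genes were higher by less. Kcnab3, a beta subunit on chromosome 11, was at 5.25, 4.39 and 3.66 against 9.7, 10.2 and 10.9 CPM (log2 fold change 1.22). Kcnj4 was at 1.44, 1.8 and 1.61 against 3.46, 2.98 and 3.39 CPM (1.01). These groups did not overlap. Kcnj10, a glial and epithelial inward rectifier, was at 0.245 CPM ± 0.131 against 0.715 CPM ± 0.317 (SD, n = 3), and its call was lost without cKO replicate 3 or without parental replicate 2 (edgeR adjusted p = 0.116 and 0.0591).

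Scn3a, a sodium channel pore typical of embryonic brain, was higher in cKO at day 0, at 6.99, 8.24 and 5.33 CPM against 3.13, 3.15 and 2.61 CPM (log2 fold change 1.19, SE 0.17). Chrna9, a nicotinic subunit known from hair cells, was at 2.03, 1.57 and 2.64 CPM against 1.13, 0.619 and 0.682 CPM (1.39, SE 0.32). Neither pair of groups overlapped. Among GABA-A subunits Gabra3 was called higher at 6 counts in parental cells, a call lost under 5 of the 6 ways of leaving out 1 library (edgeR adjusted p up to 0.157, without parental replicate 2). Gabrd held 2 parental and 16 cKO counts, a ratio of 9.51 with a 95% counting interval of 2.24 to 85.2. Without cKO replicate 2 the Gabrd call was lost (edgeR adjusted p = 0.0501).

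Calcium channel pores were mostly lower at day 0: 6 of the 8 tested Cacna1 genes were lower and Cacna1a was higher (0.21), beside 27% lower and 26.4% higher of all genes. One of the lower genes, Cacna1b (-0.65), had overlapping groups of libraries. Cacna1h, a T-type channel that opens at low voltage, was at 5.19, 3.88 and 4.53 CPM in parental and at 0.677, 1.02 and 0.439 CPM in cKO libraries. These groups were well apart, with a log2 fold change of -2.69 (SE 0.24, edgeR adjusted p = 4.00e-12). The other T-type genes, Cacna1g and Cacna1i, were at -1.41 and -2.02, and the L-type gene Cacna1d at -1.90. Grin1, the obligatory subunit of NMDA receptors, was at 5.13, 4.73 and 5.02 against 1.35, 1.18 and 1.38 CPM (-1.91, SE 0.21). Grik4, a kainate subunit, was at 3.69, 4.22 and 3.78 against 1.35, 0.863 and 0.816 CPM (-1.96, SE 0.22). Neither receptor's groups overlapped. Kcnu1, the pH-gated potassium channel of sperm, was lower by a log2 value of -1.58, and Kcnq5, of the M-current family, by -2.25 at 4 cKO counts. Gabra4 was called lower at 4 cKO counts, a call lost under 4 of the 6 ways of leaving out 1 library (edgeR adjusted p up to 0.0809, without cKO replicate 1).

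**Figure D1:**
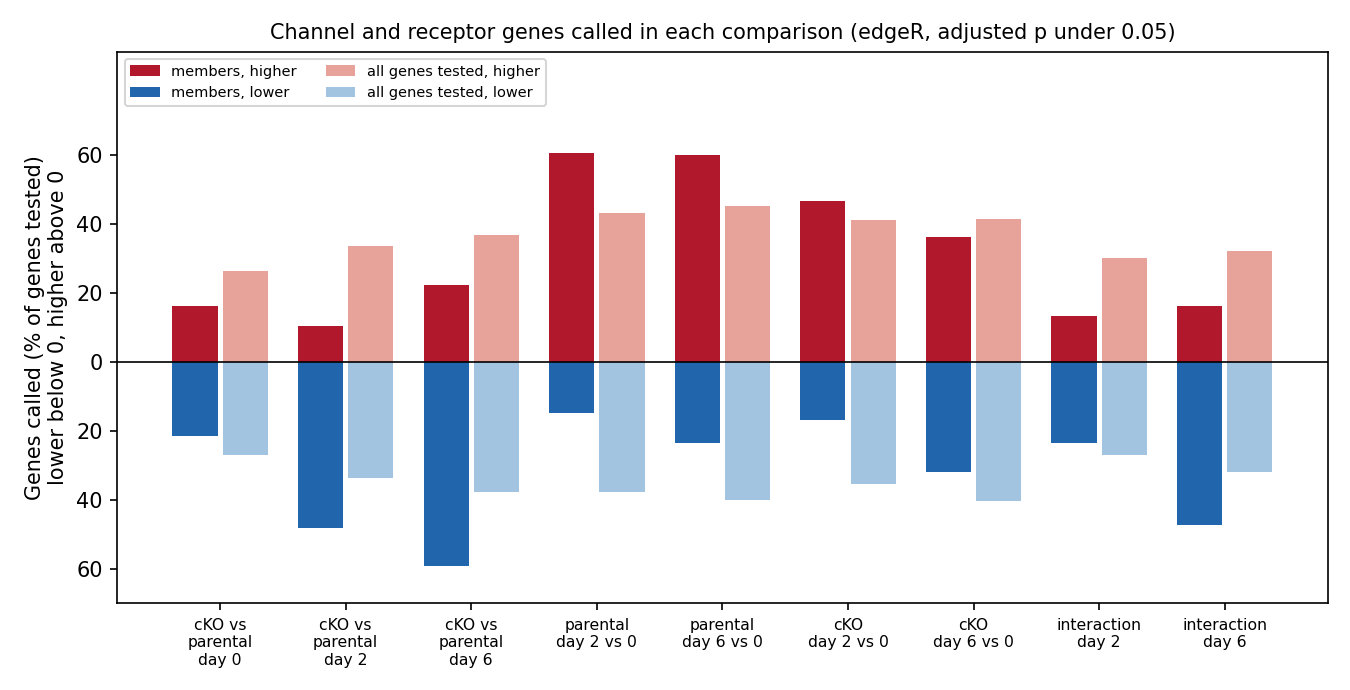
Percent of genes tested that were called higher (above 0) or lower (below 0) in each of 9 comparisons, for the 135 channel and receptor genes tested (dark bars) and for all 18352 genes tested (light bars). Dark bars for lower genes in cKO against parental lengthen from 21.5% at day 0 to 48.1% at day 2 and 59.3% at day 6, while the light ones go from 27% to 37.8%.

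At day 2 most called genes were lower in cKO. Lower genes included 6 of 9 sodium channel pores, 7 of 12 GABA-A subunits, 6 of 12 nicotinic subunits and 6 of 8 calcium channel pores, while none of the 4 AMPA receptor subunits was called. A smaller group with Grik3, Kcnab3, Kcnip2, Kcnn2 and Cacng6 was higher. Of 135 genes tested, 14 (10.4%) were higher and 65 (48.1%) lower, against 33.7% and 33.6% of all genes (67.3% in either direction). Some of the 65, such as Scn4a, Kcnj5, Gabra5 and Chrng, passed the filter only through the parental day 2 libraries and had to differ. How many did so was not counted. The median was -0.59, or -0.55 with genes at 0 counts at their bound, against -0.01 over all genes. Outside chromosome 11 the counts were 12 and 57 of 118. At a fold of at least 2 they were 5 and 40, against 6.63% and 13.9% of all genes.

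Cacng6, a gamma subunit, was higher in cKO at day 2, at 41.2, 43.2 and 40 in parental and at 77.9, 80.2 and 79.6 in cKO libraries (log2 fold change 0.93, SE 0.06, edgeR adjusted p = 1.16e-16). Grik3, a kainate receptor subunit, was at 4.21, 3.48 and 3.94 against 10.6, 11.3 and 10.7 CPM (1.48, SE 0.13). Kcnip2, a calcium sensor that binds Kv4 channels, was at 3.44, 2.88 and 3.79 against 7.35, 6.65 and 6.62 CPM (1.03, SE 0.15). All cKO libraries of these genes were above all parental ones. Kcnab3 was at 1.08, Kcnn2, a calcium-activated channel of small conductance, at 0.94 and Cacnb4, a calcium channel beta subunit, at 0.81 on the log2 scale. For Cacnb4, 16% of the exon length overlaps another gene on the opposite strand. Kcng3, a silent subunit that modifies Kv2 channels, and Chrna9 were at 1.02 each, and their calls were lost without cKO replicate 2 (Kcng3, edgeR adjusted p = 0.0718) and without parental replicate 2 (Chrna9, 0.0796). Kcnd3, at 0.769, 0.606 and 0.698 against 1.14, 1.28 and 1.2 CPM, differed less than at day 0 (0.80, SE 0.32, edgeR adjusted p = 0.0272). That call was lost under 4 of the 6 ways of leaving out 1 library, with edgeR adjusted p up to 0.0833 (without parental replicate 2).

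The genes lower at day 2 included voltage-gated sodium and potassium channels. Scn9a, the Nav1.7 pore of sensory neurons, was at 2.53, 1.57 and 1.45 CPM in parental and at 0.57, 0.175 and 0.134 CPM in cKO libraries (log2 fold change -2.64, SE 0.40). Scn4a, the skeletal muscle pore, was at 1.36, 1.06 and 1.54 against 0.317, 0.233 and 0.201 CPM (-2.37). In these sodium channel genes the groups did not overlap. Scn4a passed the filter only through the parental day 2 libraries and had to differ, so its separation adds no support. Scn7a held 28 parental counts and 0 in cKO, at least 2.4-fold lower against a floor of 3 counts per library. Kcna1 and Kcna5, delayed-rectifier pores of the Kv1 family, were at 1.19 CPM ± 0.507 and 0.792 CPM ± 0.18 in parental and at 0.19 CPM ± 0.069 and 0.127 CPM ± 0.0692 in cKO cells (SD, n = 3). Their log2 fold changes were -2.63 and -2.59. Kcnj5, a G protein-gated inward rectifier, and Kcne1l, an auxiliary subunit, were at -2.58 and -2.37. Kcnj5 likewise passed the filter only through the parental day 2 libraries. Kcnq5 held 28 parental and 3 cKO counts, a ratio of 7.21 (95% counting interval 2.23 to 37.1).

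At day 6 more genes were called than at the earlier days. All 9 tested sodium channel pores and all 4 AMPA receptor subunits were lower in cKO, and so were 4 of 5 kainate subunits, 8 of 12 GABA-A subunits and 9 of 12 calcium channel auxiliary subunits. Of the 11 tested 2-pore potassium channels 5 were higher and 2 lower, and of 9 inward rectifiers 3 were higher and 4 lower. In all 30 of 135 genes (22.2%) were higher and 80 (59.3%) lower, against 36.7% and 37.8% of all genes tested (74.5% in either direction). Some of the 80 passed the filter only through the parental day 6 libraries and had to differ. How many did so was not counted. Among them were Gria1, Gria2, Gabrb1, Gabrb2, Scn1a, Chrna3, Kcnd2, Grin3a and Kcnmb1. The median was -1.67, or -1.53 with genes at 0 counts at their bound, against 0.00 over all genes. Outside chromosome 11 the counts were 25 and 70 of 118, with a median of -1.65. At a fold of at least 2, 23 were higher and 74 lower, against 15.6% and 20.3% of all genes.

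**Figure D2:**
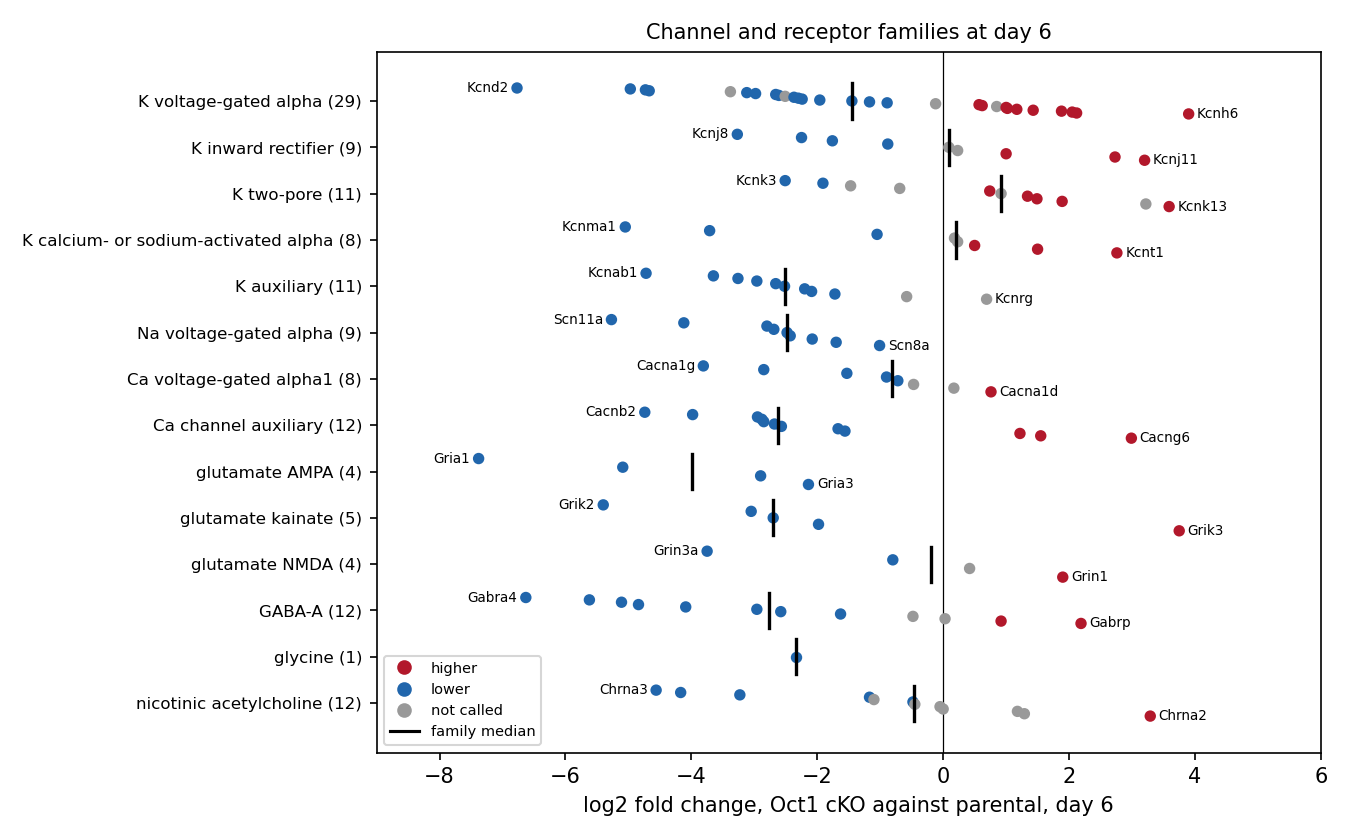
log2 fold change of cKO against parental at day 6 for each gene tested (points, red for higher, blue for lower, grey for not called), by family with the number tested in parentheses, and the family median (vertical bar). Sodium channel and AMPA receptor points all lie to the left of 0, with medians of -2.48 and -3.99, and 2-pore potassium channels have a median of 0.92. Values of genes with 3 counts or fewer in a group are fitted values that depend on the prior count.

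Fast excitatory transmission in the brain runs largely through AMPA receptors, tetramers of the 4 Gria subunits. Gria1 was at 24.2, 23.5 and 25.9 CPM in the parental libraries at day 6 and at 0.0595, 0.29 and 0.0636 CPM in cKO. Parental and cKO libraries were far apart, with a log2 fold change of -7.38 (SE 0.22, edgeR adjusted p = 9.70e-26). Outside the parental day 6 libraries Gria1 held 0 to 5 counts in a library. It passed the filter only through that group and had to differ, so its p-value adds no support. Gria1 lies on chromosome 11 (GRCm38, 57011387 to 57330244, plus strand). Gria3, another subunit, was at 52.6, 50.6 and 46.6 against 11.4, 11.9 and 10.7 CPM (-2.14, SE 0.08). Gria4 was at 5.92, 6.96 and 6.32 against 0.119, 0.29 and 0.127 CPM (-5.09), and Gria2, whose subunit makes the receptor impermeable to calcium, was at 2.29, 1.66 and 1.57 against 0.298, 0.347 and 0.0636 CPM (-2.90). No parental library of these subunits was as low as a cKO library. For Gria2, which also passed the filter only through the parental day 6 libraries, this adds no support.

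Kainate receptors split by subunit. Grik2 was at 3.93, 4.98 and 4.7 CPM in parental and at 0.0595, 0.232 and 0 CPM in cKO libraries at day 6 (log2 fold change -5.40, SE 0.36). Grik5, which needs another kainate subunit to form a channel, was at 40.6, 40.1 and 42.1 against 10.2, 10.3 and 10.7 CPM (-1.98, SE 0.08). Grik3 went the other way, at 1.94, 1.71 and 1.93 against 21.9, 25.5 and 28 CPM. Its log2 fold change was 3.75 (SE 0.13, edgeR adjusted p = 1.14e-25), and the groups were far apart. Of the NMDA receptor subunits, Grin1 was higher in cKO, at 0.647, 0.83 and 0.94 against 2.62, 3.24 and 3.18 CPM (1.90). Grin3a and Grin2d were lower (-3.75 and -0.80), and Grin2c was not called (0.42, edgeR adjusted p = 0.411).

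GABA-A receptors are chloride channels, usually of alpha, beta and gamma or delta subunits. Gabra4 was at 23.8, 25.8 and 30.1 CPM in parental and at 0.357, 0.174 and 0.254 CPM in cKO libraries at day 6, a log2 fold change of -6.63 (SE 0.20, edgeR adjusted p = 9.84e-28). Gabra3 was at 5.72, 6.12 and 5.54 against 0.179, 0.116 and 0.191 CPM (-5.11). Gabrb2 held 78 parental counts and 1 in cKO, a ratio of 66.4 (95% counting interval 11.6 to 2655). No group pair of these genes overlapped. Gabrb2 passed the filter only through the parental day 6 libraries and had to differ. The subunits called higher were Gabrp, known from epithelia, at 0.149, 0.156 and 0.209 against 0.774, 0.753 and 0.89 CPM (2.19), and Gabrd (0.92), whose call was lost without cKO replicate 1 or parental replicate 1 (edgeR adjusted p = 0.0907 and 0.0551). Gabre was not called, at 5.92 CPM ± 0.315 against 6.01 CPM ± 0.453 (SD, n = 3). Glrb, the beta subunit that anchors glycine receptors at synapses, was at 18.7, 17.9 and 18.5 against 3.45, 3.53 and 3.94 CPM (-2.33).

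Among nicotinic subunits, Chrna3 and Chrnb4, which pair in autonomic ganglia, were lower in cKO at day 6. Chrna3 was at 1.79, 2.54 and 3.29 CPM against 0.179, 0.0579 and 0.0636 CPM (log2 fold change -4.56). Chrnb4 was at 7.51, 8.51 and 10.4 against 0.476, 0.521 and 0.445 CPM (-4.17, SE 0.25). Neither pair of groups overlapped. Chrna2 was higher at low counts, 6 in parental and 53 in cKO over 3 libraries (3.29, SE 0.49). Chrna3 passed the filter only through the parental day 6 libraries and Chrna2 only through the cKO ones, so both had to differ. Chrnb1, the beta subunit of the muscle receptor, was slightly lower at 11.6, 11.5 and 10.9 against 8.99, 7.35 and 8.07 CPM (-0.48). Chrna4, a subunit of the main brain receptor, was not called, at 6.83 CPM ± 0.219 and 6.6 CPM ± 0.518 (SD, n = 3). Chrnb2 shares 16.3% of its exon length with Adar on the opposite strand, so its value (-1.17) is uncertain without strand.

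Voltage-gated sodium channels start the action potential. Scn3a, Scn2a, Scn1a, Scn9a and Scn7a lie in this order in a cluster on chromosome 2, with 503330 bases between Scn2a and Scn1a. All were lower in cKO at day 6, by -2.43, -2.80, -4.12, -2.48 and -2.69 on the log2 scale. Scn3a was at 3.83, 4.46 and 3.81 CPM against 0.953, 0.869 and 0.381 CPM, and Scn1a at 2.84, 3.37 and 2.51 against 0, 0.29 and 0.191 CPM. Outside that neighbourhood, Scn8a, a major pore of the adult brain, was at 3.08, 2.13 and 2.56 against 1.61, 1.04 and 1.21 CPM (-1.01). In each the lowest parental library was above the highest cKO library. Scn1a passed the filter only through the parental day 6 libraries and had to differ. The call of Scn4a (-1.70) was lost without cKO replicate 2 (edgeR adjusted p = 0.13).

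Of the calcium channel pores, Cacna1g and Cacna1h, both T-type, were at 41.1 CPM ± 2.47 and 52.2 CPM ± 3.7 in parental and at 2.93 CPM ± 0.1 and 7.24 CPM ± 0.222 in cKO cells at day 6 (SD, n = 3). Their log2 fold changes were -3.81 and -2.85, and Cacna1g is on chromosome 11. Cacna1a fell from day 0 in both genotypes and was lower in cKO at day 6, at 12.8, 11.1 and 11.8 against 4.35, 4.34 and 3.62 CPM (-1.53). Cacna1d was the only pore of the family called higher (0.76), at 5.17, 4.46 and 5.48 against 6.49, 9.9 and 9.28 CPM, and shares 4.67% of its exon length with Chdh on the opposite strand. Cacnb3 was at 101, 92.8 and 96.9 against 32.9, 33.4 and 32.3 CPM (-1.56, SE 0.07), and Cacnb2, a heart and brain beta subunit, at 3.28, 3.22 and 3.71 against 0.0595, 0.0579 and 0.254 CPM (-4.74). Cacna2d1, the alpha2-delta subunit that binds gabapentin, was at 52.1, 51.4 and 50.9 against 6.55, 7.93 and 6.93 CPM (-2.85). The genotypes did not overlap in any of these genes.

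The gamma subunits divided within one locus. Cacng7, Cacng8 and Cacng6 follow each other on chromosome 7, with gaps of 22461 and 8546 bases. At day 6 Cacng7 was at 24.7, 24.5 and 23.5 CPM against 3.45, 3.42 and 2.99 CPM, and Cacng8, an AMPA receptor partner, at 5.37, 4.93 and 5.17 against 0.417, 0.232 and 0.318 CPM (log2 fold changes -2.88 and -3.98). Cacng6 was at 0.0498, 0.104 and 0.157 against 0.715, 0.927 and 0.953 CPM (2.99, SE 0.44), after 79.2 CPM ± 1.19 in cKO and 41.5 CPM ± 1.62 in parental cells at day 2 (SD, n = 3). Cacng4 and Cacng5, neighbours on chromosome 11, were both higher in cKO at day 6 (1.55 and 1.22) and both lower at day 2 (-1.60 and -1.16).

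Of the 29 tested voltage-gated potassium channel pores, the family with the most tested genes, 10 were higher and 15 lower in cKO at day 6 (34.5% and 51.7%), beside 36.7% and 37.8% of all genes. Kcnd2 and Kcnd3, the Kv4.2 and Kv4.3 pores of A-type current, were on opposite sides. Kcnd2 held 174 parental counts and 1 in cKO, a ratio of 148 (95% counting interval 26.2 to 5882). Kcnd2 passed the filter only through the parental day 6 libraries and had to differ, so its interval and separation add no support. Kcnd3 was at 4.98, 5.5 and 7.16 CPM in parental and at 20, 21.7 and 23.2 CPM in cKO libraries (log2 fold change 1.88, SE 0.12, edgeR adjusted p = 3.18e-17). Kcnh2 and Kcnh6, both ERG-type channels, also differed in direction. Kcnh2 was at 26.1, 25.2 and 28.1 against 4.47, 6.31 and 5.27 CPM (-2.30). Kcnh6, on chromosome 11, was at 0.746, 0.519 and 0.313 against 7.92, 8.34 and 7.75 CPM (3.90, SE 0.26). In each of these the 2 genotypes were fully separated.

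Kcna5, Kcna1 and Kcna6, neighbours on chromosome 6, were lower in cKO at day 6 (-4.97, -4.73 and -2.66). Kcna5 was at 3.23, 3.43 and 3.45 against 0.0595, 0.116 and 0.127 CPM. Kcnq5 was at 26.2, 22.6 and 23.9 against 6.49, 6.37 and 5.72 CPM (-1.96), although both genotypes started under 1 CPM at day 0. Kcng1 and Kcng3, silent subunits, were higher: Kcng1 at 17.6, 19.4 and 16.9 against 27.3, 26.1 and 26.7 CPM (0.57), and Kcng3 at 0.498, 0.415 and 0.783 against 2.2, 2.32 and 2.92 CPM (2.12). The genotypes were apart in each of these.

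The auxiliary subunits of potassium channels were lower in 9 of 11 and higher in 0 at day 6, beside 37.8% lower and 36.7% higher of all genes. Kcnab1, a beta subunit of Kv1 channels, was at 9.35, 10.6 and 12.4 CPM against 0.357, 0.347 and 0.508 CPM (log2 fold change -4.72, SE 0.24). Kcne4 was at 2.09, 2.85 and 2.82 against 0.536, 0.521 and 0.763 CPM (-2.09). Kcnip3, a calcium sensor, was at 6.12, 6.38 and 6.32 against 0.893, 1.16 and 1.21 CPM (-2.52). No cKO library reached a parental one in these genes. Kcnmb4 and Kcnmb1, beta subunits of the large-conductance channel BK, were lower as well (-3.65 and -2.20). So was its pore Kcnma1, at 2.84, 2.7 and 3.13 against 0, 0.174 and 0.0636 CPM (-5.05, SE 0.41). Kcnmb4 shares 20.8% of its exon length with an antisense gene that held 47 counts in all libraries together.

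Among channels that set resting potassium conductance, 5 of the 11 tested 2-pore genes were higher and 2 lower in cKO at day 6 (45.5% and 18.2%). Of the 9 tested inward rectifiers 3 were higher and 4 lower (33.3% and 44.4%), beside 36.7% and 37.8% of all genes. Kcnk6 was at 22, 21 and 20.8 CPM in parental and at 58.8, 60.3 and 60.6 CPM in cKO libraries (log2 fold change 1.49, SE 0.06, edgeR adjusted p = 5.44e-23). Kcnk5 was at 22.6, 24.9 and 24.5 against 58.6, 60.5 and 63.7 CPM (1.34, SE 0.06). Kcnk16, next to Kcnk5 on chromosome 14, was at 0.398, 0.519 and 0.47 against 1.49, 1.62 and 2.1 CPM (1.89). In these 2-pore channels each cKO library was above each parental one. Among inward rectifiers, Kcnj11, the pore of the ATP-sensitive channel, was at 0.348, 0.311 and 0.522 against 3.45, 3.82 and 3.75 CPM (3.20), and Kcnj15 at 0.398, 0.623 and 0.522 against 3.1, 3.88 and 3.3 CPM (2.73). Kcnj2, the classical inward rectifier of muscle, was lower at 6.47, 5.4 and 6.53 against 1.61, 1.8 and 2.03 CPM (-1.76). Kcnn3, a calcium-activated channel, was at 5.27, 5.24 and 4.86 against 12, 15.7 and 16 CPM (1.50), and Kcnt1, a sodium-activated channel, at 0.448, 0.986 and 1.36 against 5.72, 5.56 and 7.63 CPM (2.76). These too did not overlap.

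**Figure D3:**
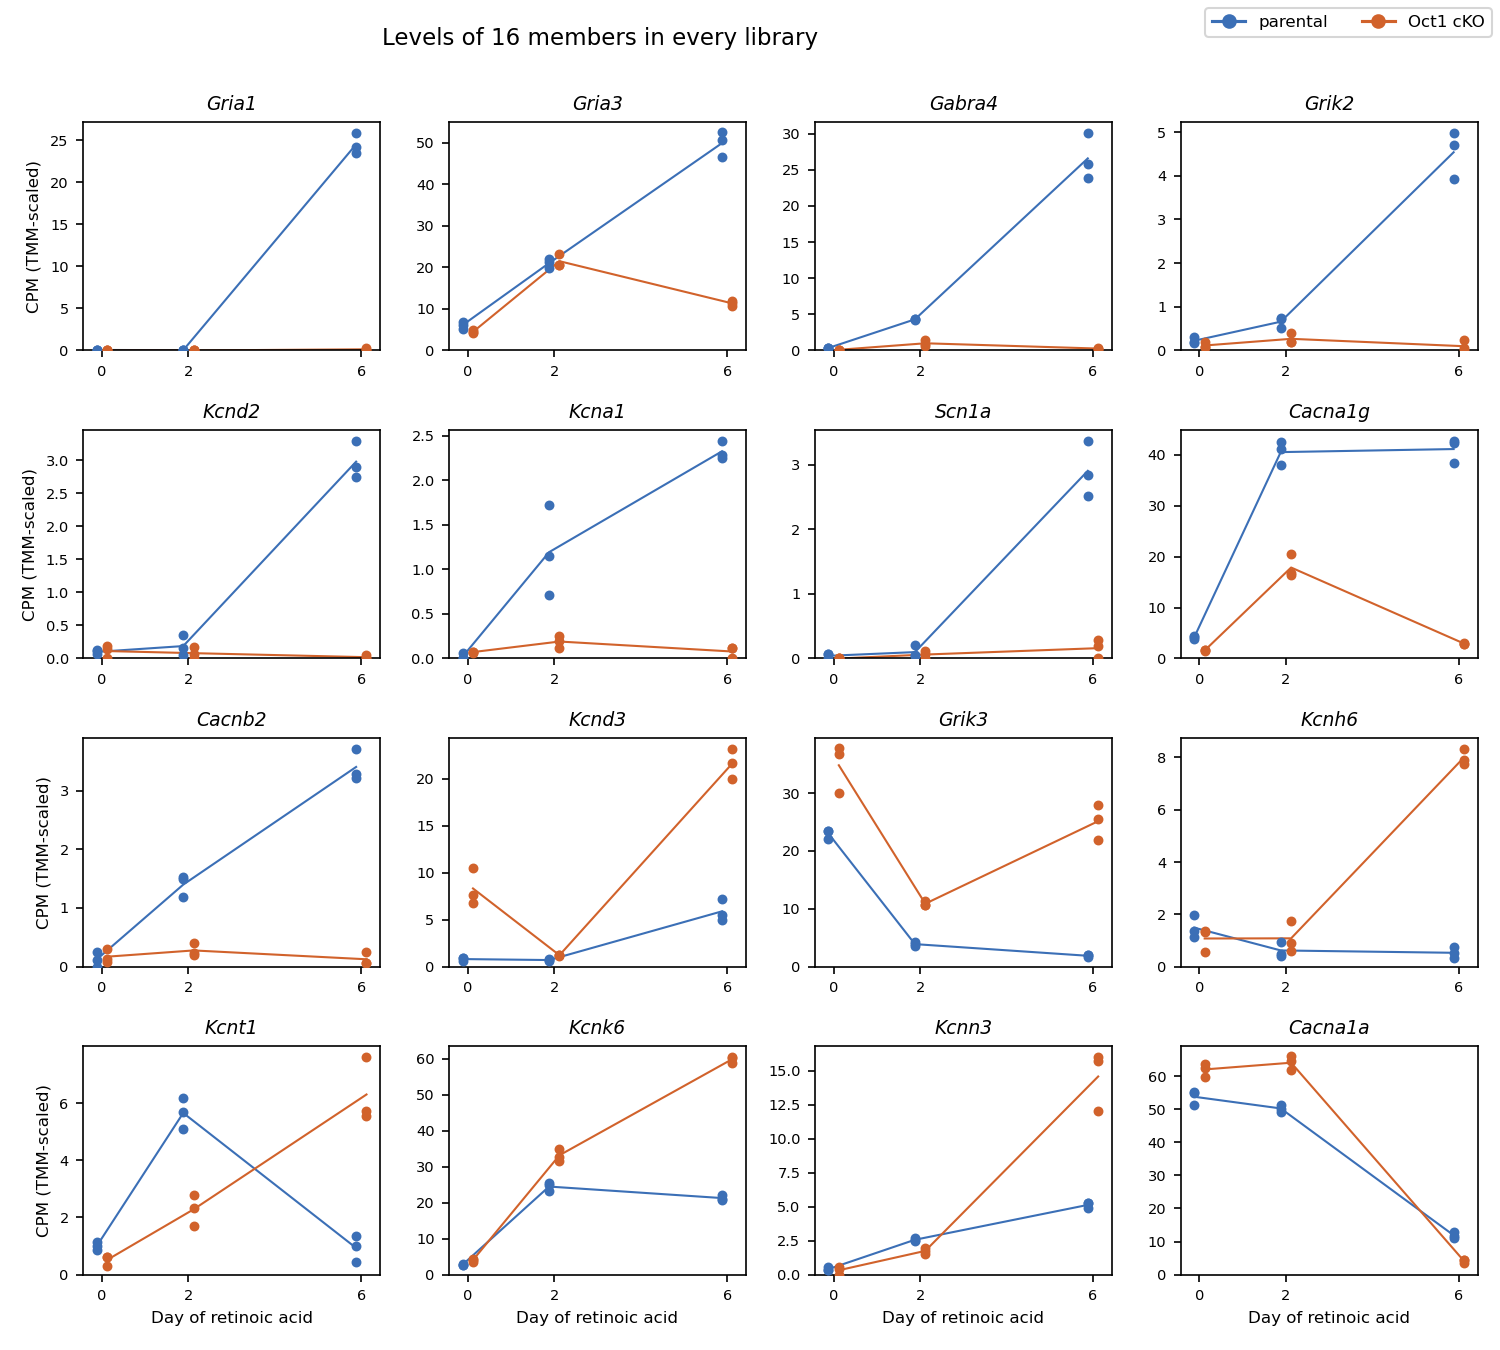
CPM of 16 channel and receptor genes against the day of retinoic acid, with 1 point per library and a line through the group means (parental blue, cKO orange). Gria1 stayed near 0 in all libraries except the parental ones at day 6, while Kcnd3 in cKO was high at day 0, near 1 CPM at day 2 and at 20 CPM or more at day 6.

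Over time in parental cells most of the channel genes tested rose. From day 0 to day 2, 82 of 135 (60.7%) rose and 20 (14.8%) fell, against 43.2% and 37.7% of all genes tested, and from day 0 to day 6, 81 (60%) rose and 32 (23.7%) fell, against 45.3% and 40.2%. In either direction 80.8% and 85.5% of all genes were called. Some channel genes that rose passed the filter only through the later parental group and had to differ. Kcnj5 at day 2 and Gria1 at day 6 are examples. How many genes passed in this way was not counted. At a fold of at least 2 the channel genes that rose and fell were 68 and 11 by day 2 and 77 and 29 by day 6, against 26.5% and 13.3%, and 29.5% and 22.4%, of all genes. The medians were 1.11 and 1.58, or 1 and 1.51 with genes at 0 counts at their bound, against 0.08 and 0.07 over all genes. With library sizes and no scaling factor the median of all genes moved by 0.34 at day 2, and the counts there were 91 and 11. In cKO cells 63 (46.7%) rose and 23 (17%) fell by day 2, against 41% and 35.5% of all genes. By day 6, 49 (36.3%) had risen and 43 (31.9%) fallen, against 41.4% and 40.4%. In either direction 76.5% and 81.8% of all genes were called. At a fold of at least 2 the counts in cKO were 52 and 16 by day 2 and 42 and 39 by day 6, against 23.9% and 15.8%, and 26.7% and 24.1%, of all genes. The cKO medians were 0.71 and 0.24, or 0.66 and 0.00 with genes at 0 counts at their bound. Without replicate 3 of cKO at day 0 the cKO counts were 61 and 18, and 49 and 45.

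The parental rise by day 6 was led by receptor and channel genes near 0 in ESCs. Gria1 went from 3 counts over the day 0 libraries to 1435 at day 6, a ratio of 408 (95% counting interval 139 to 1980), and held 2 counts at day 2. Chrna3 and Kcnb2, a Kv2 delayed rectifier, held 0 counts at day 0 and 148 and 129 at day 6, at least 14-fold and 12.2-fold higher against a floor of 3 counts per library. Gria1, Chrna3 and Kcnb2 passed the filter only through the parental day 6 libraries and had to differ. Gabra4 was at 0.343 CPM ± 0.0533 at day 0, 4.31 CPM ± 0.101 at day 2 and 26.6 CPM ± 3.22 at day 6 (SD, n = 3). Its log2 change to day 6 was 6.26, and in cKO the same days were at 0.093 CPM ± 0.0282, 0.993 CPM ± 0.431 and 0.262 CPM ± 0.092 (SD, n = 3). By day 2 the parental rise was led by Kcnj5, from 0 to 72 counts (at least 6.44-fold), Kcnj11, from 1 to 104 counts (ratio 83.7, 14.7 to 3338), and Kcna6, from 0.102 CPM ± 0.0732 to 4.15 CPM ± 0.0873 (SD, n = 3). Kcna1 went from 1 to 75 counts (60.4, 10.5 to 2416) and Scn9a from 2 to 116 (46.7, 12.6 to 390). Of these, Kcnj5 passed the filter only through the parental day 2 libraries and had to differ.

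A smaller set fell in parental cells. Grik3 was at 23.5, 23.5 and 22 CPM at day 0, 4.21, 3.48 and 3.94 at day 2 and 1.94, 1.71 and 1.93 at day 6, a log2 change of -3.62 (SE 0.13, edgeR adjusted p = 2.81e-25). Kcnj15, Kcns3 and Kcnh3 fell by day 2 (-3.13, -2.55 and -1.63). In cKO cells Kcnd3 was at 7.67, 10.5 and 6.78 CPM at day 0, 1.14, 1.28 and 1.2 at day 2 and 20, 21.7 and 23.2 at day 6. The fall to day 2 was -2.76 on the log2 scale (SE 0.20, edgeR adjusted p = 3.08e-15), with no overlap between days. Kcnj15 in cKO likewise fell by day 2 (-2.59) and was above day 0 at day 6 (1.15). Also in cKO, Kcnn3 rose by 5.42 and Kcnk6 by 3.88 from day 0 to day 6, while Cacna1a fell by 3.91 and Kcnab3 by 3.44.

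**Figure D4:**
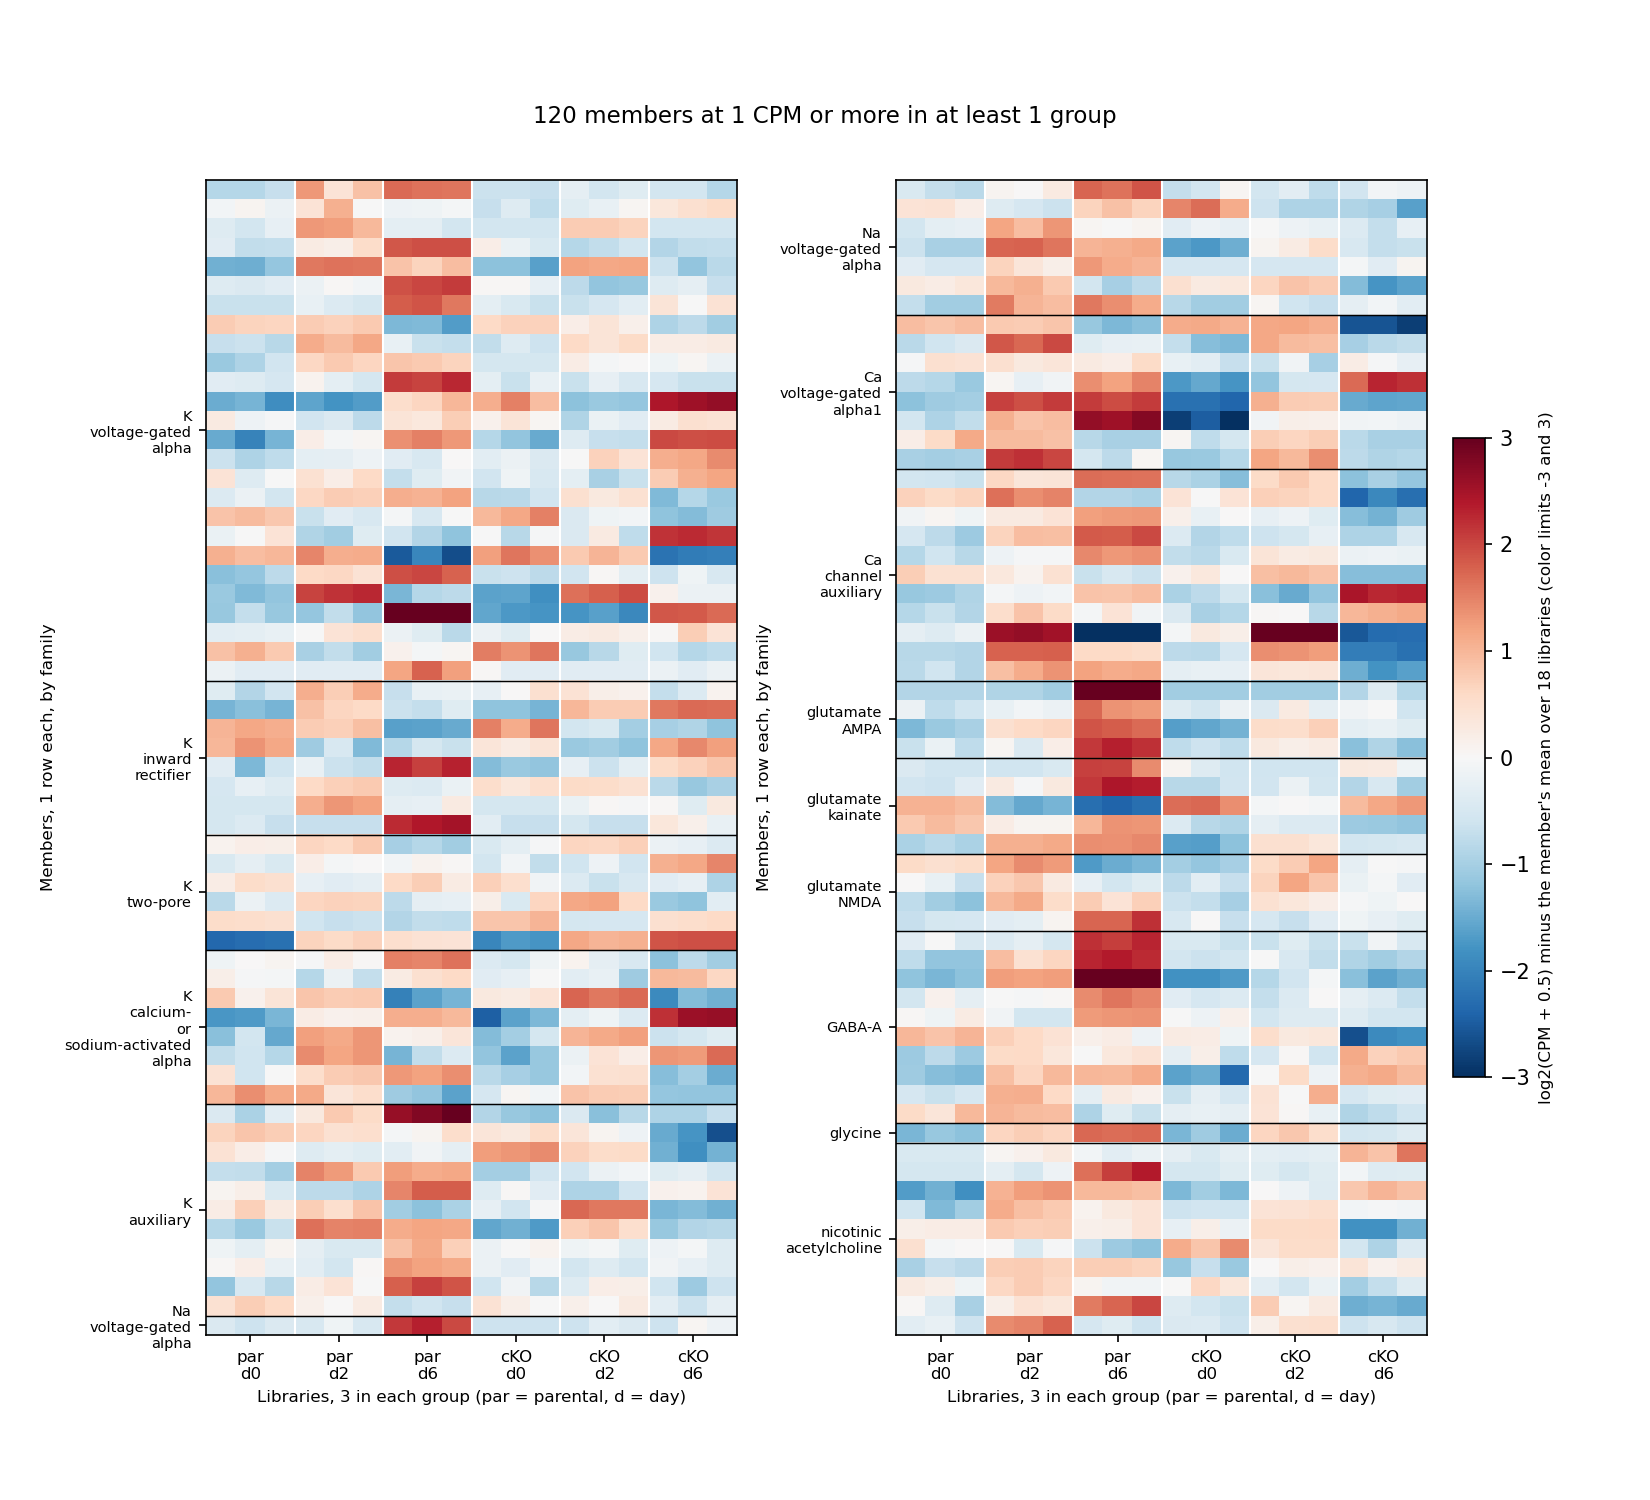
log2(CPM + 0.5) minus the mean over 18 libraries (color, limits -3 and 3) for the 120 channel and receptor genes at 1 CPM or more in a group, in rows labelled by family with lines between families, and the 18 libraries in columns by group. The parental day 6 columns are the reddest for 49 of these genes by group mean, the parental day 2 columns for 32 and the cKO day 6 columns for 19.

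The change from day 0 differed between genotypes for many of these genes. The interaction of genotype and day 2 was called for 18 genes (13.3%) with a change more positive in cKO and 32 (23.7%) with one more negative, against 30.1% and 26.9% of all genes tested (57% in either direction). With library sizes and no scaling factor these were 12 and 35. For day 6 it was called for 22 (16.3%) and 64 (47.4%), against 32% and 31.9% (63.9% in either direction), with a median of -1.41 against -0.01 over all genes. At a fold of at least 2 the counts were 11 and 23 at day 2 and 19 and 64 at day 6, against 9.33% and 13.6%, and 15.7% and 18.7%, of all genes. Without replicate 3 of cKO at day 0 the counts were 17 and 31 at day 2 and 21 and 64 at day 6. Kcnh6 fell from day 0 to day 6 in parental cells (-1.47) and rose in cKO (2.86), an interaction of 4.34 (SE 0.45, edgeR adjusted p = 2.07e-10). Grin1 fell in parental cells (-2.61) and rose in cKO (1.20), an interaction of 3.81 (SE 0.31). Gabra3 and Kcna5 rose in parental cells (5.51 and 4.17), while in cKO Kcna5 fell (-2.02) and Gabra3 was not called (-1.12), and their interactions were -6.63 and -6.19.

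Members lie in groups in the genome: 78 of the 163 had another within 1 Mb, in 29 clusters. Several clusters had the same direction in cKO against parental at day 6, as for the chromosome 2 sodium channels. Gabra4 and Gabrb1, head to head on chromosome 5 with an exon overlap of 46 bases, were both lower (-6.63 and -4.09). Others were split. Of Chrna5, Chrna3 and Chrnb4 on chromosome 9, the outer gene Chrna5 was not called (-0.45, edgeR adjusted p = 0.086), and of Gabre, Gabra3 and Gabrq on the X chromosome, Gabre was not called. The genes lower at day 6 spanned a median of 91.4 kb in the annotation, against 31.8 kb for those higher, 24.2 kb for those not called and 23.9 kb for all protein-coding genes tested. Length was not tested as a factor.

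Other genes that work with these channels were read from lists chosen with results of these data known. Beside the counts given here, 36.7% of all genes tested were higher and 37.8% lower in cKO at day 6, 74.5% in either direction. Of 23 tested synapse scaffold and adhesion genes, 18 were lower and 3 higher in cKO at day 6, with a median of -2.41. Dlg4, the scaffold PSD-95, and Shank2 were at -3.74 and -4.71, and Nlgn2, the adhesion protein of inhibitory synapses, at -1.36. Of 31 other channel genes 16 were lower, such as Asic2 (-5.55) and the ATP receptor P2rx7 (-3.79), and 7 higher, such as the pacemaker channel Hcn2 (2.87). Of 6 tested genes for transmitter synthesis and vesicle loading 3 were lower and 1 higher, the vesicular glutamate transporter Slc17a7 (1.74). Of 8 genes of the REST complex 6 were higher and 2 lower, with a median of 0.33. Rest itself was at 418 CPM ± 14.3, 157 CPM ± 1.74 and 147 CPM ± 5.71 in parental cells over the 3 days, and at 520 CPM ± 46.1, 226 CPM ± 5.7 and 188 CPM ± 1.05 in cKO (SD, n = 3; log2 fold change 0.36 at day 6).

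Markers of cell types differed between genotypes on the later days too. At day 2 the summed level of the neuron list was 88.4 to 96.1 CPM in parental and 204 to 216 CPM in cKO libraries. Of its genes 5 were higher and 5 lower in cKO. Stmn2 made up a large part of the cKO sum, at 117 CPM ± 3.8 against 28.2 CPM ± 1.71 in parental cells (SD, n = 3). At day 0 Stmn2 was at 271 CPM ± 4.38 in parental and 324 CPM ± 27.8 in cKO cells (SD, n = 3). The other lists are given for day 6. The summed level of the neuron list, 11 of its 12 genes tested and none at 0 at day 6, was 790 to 927 CPM in parental and 58.8 to 69.6 CPM in cKO libraries at day 6. Of these 11 genes 8 were lower and 2 higher in cKO, with Dcx at -7.05 and Stmn2 at -5.59. The epithelium list, 5 of 5 higher, was at 859 to 953 against 3714 to 4143 CPM, and the visceral endoderm list, 4 of 5 higher, at 67.6 to 73.9 against 171 to 175 CPM. The smooth muscle list, 4 of 4 lower, was at 777 to 1066 against 138 to 218 CPM, and the fibroblast (feeder cell) list, 3 of 4 lower, at 2787 to 2969 against 329 to 394 CPM. The heart muscle list, 3 higher and 3 lower of 8, was at 12 to 12.5 against 40.7 to 45 CPM. Myl7 made up most of its cKO sum, at 34.2 CPM ± 2.04 against 6.07 CPM ± 0.178 in parental cells (SD, n = 3). Neural progenitor genes, 1 higher and 3 lower of 5, were at 146 to 170 against 30.1 to 34.6 CPM, with Hes5 at 0 in parental and Sox1 at 0 in cKO cells. The glial list, 0 of 3 called, was at 0.448 to 0.47 against 0.347 to 0.715 CPM, with Aqp4 at 0 in parental and Olig2 at 0 in cKO cells. The skeletal muscle list, 3 of 5 higher, was at 3.97 to 4.72 against 8.33 to 13 CPM, with Mymx at 0 in parental and Myod1 at 0 in cKO cells, and the endothelium list at 319 to 335 against 295 to 316 CPM, with 3 of 4 higher and Kdr at -4.13. The part of these cell types in the channel results was not tested.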

How the data were processed

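The authors deposited 1 table of counts: unnormalized integers for each Ensembl gene in 18 libraries. Trypsinized cells gave total RNA for standard Illumina libraries, per the labels' protocols. Per the submitters' processing notes, Novoalign, DESeq2 1.10.0 and the builds mm10 and GRCm38 were used. Which program counted reads, with which strand setting, is not given in the sources used here. Overlapping genes, and near-identical paralogs, are therefore uncertain.

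Counts were tested with edgeR 4.0.16 in R 4.3.3: TMM factors, filterByExpr (minimum count 10, minimum total 15), 1 robust quasi-likelihood fit of all 18 libraries with a coefficient per group, and Benjamini-Hochberg adjustment over 18352 genes in each of 9 comparisons. Genes under 0.05 were called. SE is the log2 fold change over the root of F. RPKM divides CPM by annotated exon length (GENCODE M21, GRCm38). Intervals of 95% and floors of 3 counts cover counting error only. Recovery of 200 genes changed by known folds was tested on simulated data. Promoters came from RefSeq (GRCm38.p6).

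The genes and lists were chosen with earlier results of these data known. Named genes are Pou2f1, Gria1, Kcnd3, the 8 called members that increased most and the 8 that decreased most per genotype comparison (5 and 5 elsewhere) at 1 CPM or more with separate groups (not asked of interactions), the 2 highest of each family, and up to 4 of each list (other channels, transmitter synthesis, synapse scaffold, REST complex and markers of 10 cell types) by adjusted p. Other members were named after their values were seen. Some genes that this rule selects are not reported here. Alternatives were DESeq2 1.42.0, its size factors, library sizes, no filter, a fit restricted to the groups compared, a fold threshold of 2, members outside chromosome 11, members at 1 CPM or more (added after seeing the data) and each library left out. The labels give no replicate numbers, so replicates were numbered in sample order. No replicate pair agreed within sampling noise.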

Additional observations from a re-analysis of the deposited data

Results flagged for a closer look

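The results listed here are those in which the change from day 0 differed between cKO and parental cells by edgeR's interaction test. At day 2 this held for 18 of 135 genes with a more positive and 32 with a more negative change in cKO, and at day 6 for 22 and 64. Of all genes tested, 30.1% and 26.9% were called in these directions at day 2, and 32% and 31.9% at day 6. The comparisons share their day 0 libraries.

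The genes named here are, in each direction, the 5 with the largest interaction among called genes whose highest group mean was 1 CPM or more. Of the 18 with a more positive change in cKO by day 2, Kcnip2 had an interaction of 1.86 on the log2 scale, Cacna1h 1.78, Kcnu1 1.64 and Grin1 1.45. These 4 were all lower in cKO at day 0. Cacna1i had 1.71, a call lost without cKO day 0 replicate 2 or parental day 0 replicate 3 (edgeR adjusted p = 0.0551 and 0.0708).

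Of the 32 with a more negative change by day 2, Kcna5 had -3.81 and Gabra3 -3.20. Of the genes with 3 counts or fewer in a group, whose fitted values depend on the prior count, Gabrd had -4.54, with 2 and 63 counts in parental and 16 and 17 in cKO cells at days 0 and 2. Kcna1 had -4.16, with 1 and 75 against 3 and 9 counts, and its call was lost without cKO day 0 replicate 2 (edgeR adjusted p = 0.0503). Chrna2 had -4.93, with 0 and 17 against 2 and 3 counts, and its call was lost under 5 of the ways of leaving out 1 library (edgeR adjusted p up to 0.1, without cKO day 0 replicate 1).

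Of the 22 with a more positive change in cKO by day 6, the 5 were Kcnh6 (4.34), Grin1 (3.81), Kcnj15 (3.75), the sodium-activated channel Kcnt1 (3.68) and Grik3 (3.16). Of the 64 with a more negative change, the 5 were Gabra3 (-6.63), Kcna5 (-6.19) and 3 genes with few counts in a group. Kcnd2 had -7.00, with 5 and 174 counts in parental and 5 and 1 in cKO cells at days 0 and 6. Kcnd2 passed the filter only through the parental day 6 libraries and had to differ, so its call adds no support. Kcna1 had -6.26, with 1 and 136 against 3 and 4 counts. Chrna3 had -6.66, with 0 and 148 against 1 and 5 counts, a call lost under 4 of the ways of leaving out 1 library (edgeR adjusted p up to 1, without cKO day 0 replicate 3). Gria1 was not called by edgeR (adjusted p = 0.906), its cKO libraries at day 0 all being at 0, and was called by DESeq2 (-5.23, adjusted p = 0.00182). Chrna3 and Gria1 passed the edgeR filter only through the parental day 6 libraries and had to differ. Their calls, that of DESeq2 included, add no support.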

How the results depend on the processing

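Of 276 alternative values for the 18 counts of called genes, 270 stayed within 1.5 times the main count. A fold of at least 2 gave 8 higher at day 0, 5 higher and 40 lower at day 2, 11 lower in parental cells from day 0 to day 2, and 11 with a more positive change at day 2. Library sizes without scaling gave 11 lower in parental cells at day 2. Under that setting 3 values of day 2 against day 0 in parental cells changed sign, counting only values called in either fit. Cacna1a became 0.24 (edgeR adjusted p = 0.000186), Kcnj12 0.01 (0.947) and Pou2f1 0.02 (0.884). The cause was not tested. Leaving out each library gave 16 to 18 higher and 25 to 28 lower at day 0, 10 to 15 and 59 to 65 at day 2, and 28 to 31 and 77 to 79 at day 6. For parental cells it gave 74 to 82 and 16 to 19 by day 2 and 74 to 79 and 31 to 33 by day 6. For cKO cells it gave 61 to 64 and 18 to 23, and 44 to 50 and 41 to 45. For the interactions it gave 14 to 18 and 27 to 34 at day 2, and 19 to 23 and 59 to 66 at day 6. Single-gene values lost a call in 192 cases and gained one in 75. In 7370 cases the call status was kept, and the direction too wherever a value was called. No paired analysis was possible because the labels give no replicate numbers. Genes with few counts in a group are limited by depth, and Pou2f1 reads remained in cKO libraries.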
